A study of Mus musculus with 6 samples.

Results

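Expression of 5 Krüppel-like factor (KLF) genes, Klf2, Klf3, Klf4, Klf6 and Klf13, and of 3 genes of lymphoid homing and survival, S1pr1, Ccr7 and Il7r, was followed in mouse regulatory T cells (Treg cells), the CD4 T cells that carry the transcription factor Foxp3. The members were chosen by gene symbol, and 8 of 8 were found among the 47069 Ensembl gene IDs that the deposited tables shared. RNA sequencing covered 6 libraries. The conditional knockout (cKO) cells came from Foxp3CreNoc4lfl/fl mice, in which a Cre recombinase driven from Foxp3 acts on a pair of floxed alleles of Noc4l. The heterozygous (Het) cells came from Foxp3CreNoc4l+/fl mice, so Cre and at least 1 floxed allele were shared by every library. Cells from lymph node and spleen were sorted as CD4+GFP+, with a further surface marker, and then activated with Dynabeads. Libraries were made after 72 h (cKO replicates 2 and 4, Het replicates 1 and 3) and after 48 h (cKO replicate 2, Het replicate 1). The labels do not say how old the mice were or whether a library came from 1 animal or a pool. The p-values below thus describe variation among these libraries only.

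KLF proteins bind CACCC-type and GC-rich DNA through zinc fingers. In resting T cells Klf2 is known as a factor of quiescence that drives S1pr1, the receptor for sphingosine 1-phosphate (S1P) that lets lymphocytes leave lymphoid organs. Ccr7, the receptor that guides T cells into the T cell zone, and Il7r, the alpha chain of the interleukin 7 receptor, are like Klf2 known targets of the forkhead factor Foxo1, which antigen receptor signalling removes from the nucleus. Activated T cells usually lower these genes and may regain them as the stimulus wanes.

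Levels are in FPKM, a count of fragments divided by gene length and by library size, and the estimated depth was 16.5 to 28.8 M fragments per library. The first deposited table held replicates 1 and 2 and the second replicates 3 and 4, each table with both genotypes. Treg and T cell markers summed to 3007 to 3780 FPKM, and Foxp3 stood at 147 to 336 FPKM. Noc4l went against the labels. It stood at 81.7 and 58.1 FPKM in the libraries labelled cKO at 72 h against 48.8 and 40.8 FPKM in Het, and at 124 FPKM in the library labelled cKO at 48 h against 99.1 FPKM in Het, so directions below hold for the libraries as labelled. The labels do not say which exons are floxed, and a level over the whole gene does not show their loss. Markers of other cells were uneven. The 8 neutrophil and myeloid markers summed to 248 FPKM in cKO 2 at 72 h and 308 FPKM in cKO 2 at 48 h, and to at most 0.665 FPKM in each of the other 4 libraries, where 3 to 5 of the 8 were listed at 0. The 5 B cell markers summed to 83.6 FPKM in cKO 2 at 72 h, 22.6 FPKM in cKO 2 at 48 h and 8.18 to 12.4 FPKM elsewhere. The 6 CD8 T and NK cell markers summed to 296 and 119 FPKM in cKO 2 and cKO 4 at 72 h against 79.9 and 14.2 FPKM in Het 1 and Het 3. In cKO 4 that sum lay mostly in Nkg7 and Gzma, at 89.1 and 22.8 FPKM, against 6.48 and 1.92 FPKM in Het 3. Cd8a stood at 2.24 FPKM in cKO 4 and 1.01 FPKM in Het 3, and Cd8b1 at 4.47 and 4.69 FPKM. Cd8a was highest in cKO 2 and Het 1 at 72 h, at 39.0 and 20.3 FPKM. Where values move with these markers, the part of the markers was not tested. In bulk RNA, fewer cells of a type and less RNA per cell cannot be told apart.

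Klf2, Klf3, Klf13 and S1pr1 were each lower in both 72 h libraries labelled cKO than in both Het libraries, by 1.10 to 1.37 on the log2 scale for Klf2, Klf3 and S1pr1 and by 0.52 for Klf13. Ccr7 and Klf4 went the other way, at 0.90 and 1.36. Klf6 differed by only -0.28, and Il7r differed in opposite directions in the 2 pairs of libraries. None of the 8 passed limma's test, whose adjusted p over all genes ran from 0.106 to 0.535 for the members. At 48 h the lower levels of Klf2, Klf3, Klf13 and S1pr1 in cKO were not seen.

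**Figure D1:**
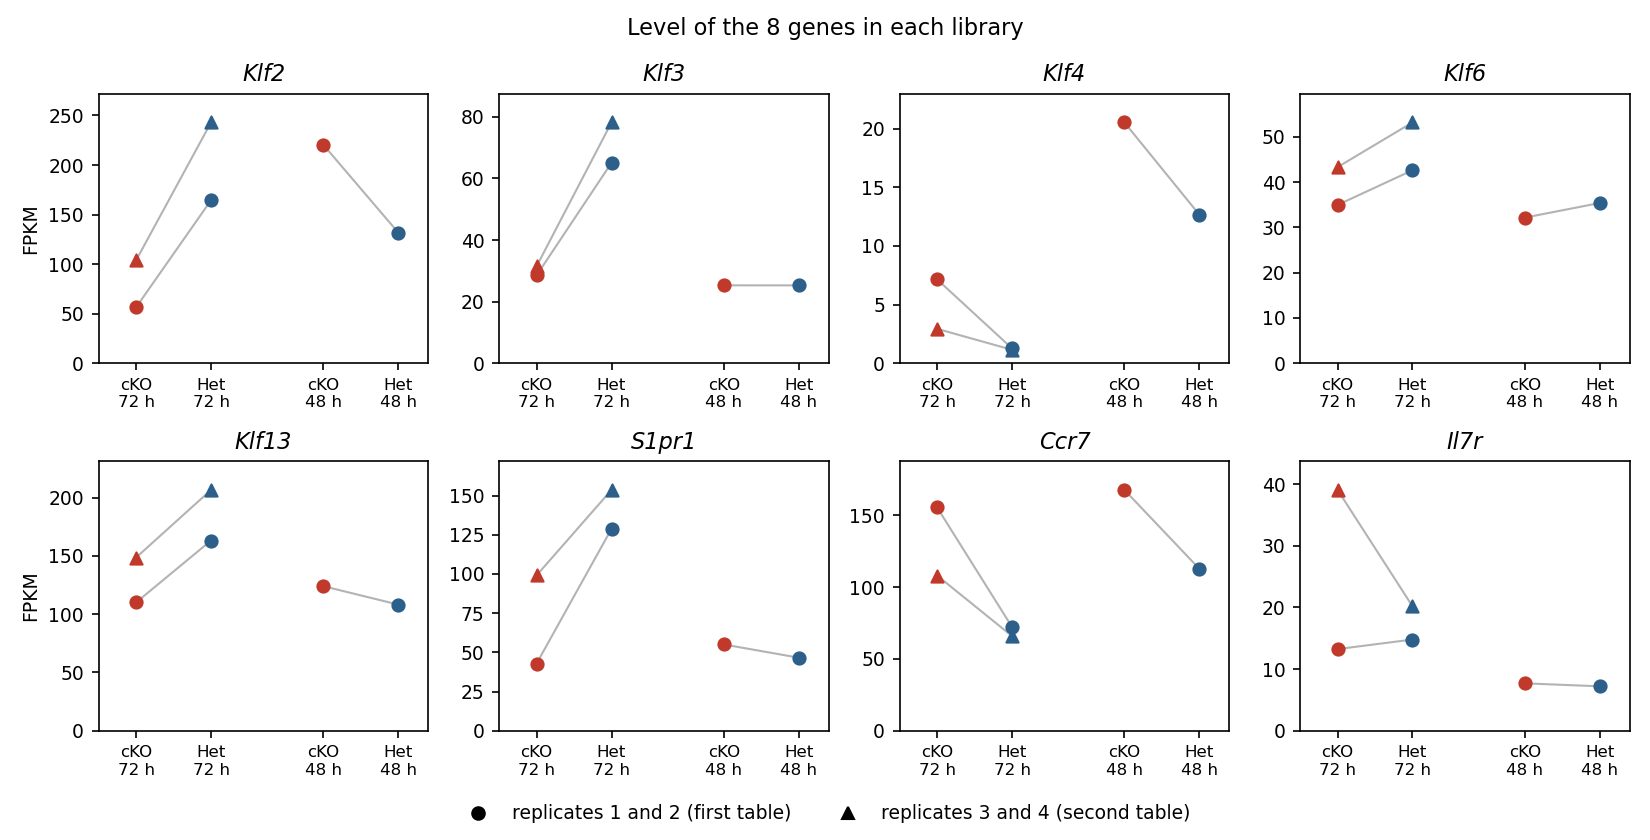
FPKM of each of the 8 genes (linear axis from 0) in the 6 libraries, cKO in red and Het in blue, with circles for replicates 1 and 2, triangles for replicates 3 and 4, and grey lines joining libraries of the same table and time. Klf2, Klf3, Klf13 and S1pr1 lie lower in both cKO libraries than in both Het libraries at 72 h, Klf4 and Ccr7 lie higher, and the 48 h pair does not show the lower levels.

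Klf2, the KLF factor most tied to T cell quiescence and egress, stood at 56.5 and 104 FPKM in cKO 2 and cKO 4 at 72 h, against 164.5 and 243 FPKM in Het 1 and Het 3. At 48 h the order was turned round, with 220 FPKM in cKO 2 against 132 FPKM in Het 1. The 72 h groups did not overlap, the lowest level of all 6 libraries was that of cKO 2 at 72 h, and the level of cKO 2 at 48 h was second only to Het 3. The log2 difference at 72 h, on the log2(FPKM + 1) scale used throughout, was -1.37 ± 0.14 (SE, 2 libraries per genotype, 95% interval -1.77 to -0.97, limma adjusted p = 0.106). In cKO 2 at 72 h the level rested on an estimated 2491 fragments, with a 95% counting interval of 54.3 to 58.8 FPKM, which covers counting error alone.

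Klf3, a repressor that recruits CtBP proteins, stood at 28.5 and 31.5 FPKM in cKO at 72 h, against 65.1 and 78.2 FPKM in Het. At 48 h it was level, at 25.3 FPKM in cKO and 25.3 FPKM in Het. The cKO values at 72 h thus lay near those of 48 h, and the Het values above them. The log2 difference at 72 h was -1.22 ± 0.13 (SE, 95% interval -1.58 to -0.87, limma adjusted p = 0.106). The pairs gave -1.16 and -1.29, closer to each other than those of Klf2 at -1.53 and -1.22. An annotated transcript, Gm20033, overlaps exons of Klf3 on the opposite strand and reached 2.41 FPKM at most, and the exons of the other 7 genes overlap no other annotated gene.

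The promoter sequences of the KLF genes that differed most are shown because 2 were low together while the third was high. They are the 250 bases before the annotated start, from RefSeq on GRCm38.p6, a later build than the mm9 named for the study, and 6 of the 8 genes had an entry in that table. Capitals mark CACCC or its reverse complement GGGTG, the core KLF box, and in Klf2 the MEF2-type element, CTA followed after any 4 bases by TAG.
Klf2, chr8:72318812-72319061, + strand: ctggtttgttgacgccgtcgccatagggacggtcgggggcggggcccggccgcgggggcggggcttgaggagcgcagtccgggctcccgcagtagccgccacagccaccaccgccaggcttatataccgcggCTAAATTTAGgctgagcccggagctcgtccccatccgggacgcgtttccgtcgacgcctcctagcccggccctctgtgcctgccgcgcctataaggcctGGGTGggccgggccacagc
Klf3, chr5:64803271-64803520, + strand: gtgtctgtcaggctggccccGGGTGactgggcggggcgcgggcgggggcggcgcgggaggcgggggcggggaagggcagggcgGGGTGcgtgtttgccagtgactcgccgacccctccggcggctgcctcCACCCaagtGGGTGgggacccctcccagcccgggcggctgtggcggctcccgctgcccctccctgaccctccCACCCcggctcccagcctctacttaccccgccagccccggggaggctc
Klf4, chr4:55532476-55532725, - strand: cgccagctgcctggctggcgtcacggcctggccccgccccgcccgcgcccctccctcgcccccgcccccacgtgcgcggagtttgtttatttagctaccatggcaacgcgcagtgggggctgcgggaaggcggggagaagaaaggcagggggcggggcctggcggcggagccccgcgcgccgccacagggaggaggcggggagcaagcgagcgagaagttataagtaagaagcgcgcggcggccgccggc
The Klf2 window held 1 KLF box, beginning 19 bases before the start. It also held 1 MEF2-type element, beginning 118 bases before the start, a kind of site through which MEF2 factors are known to act on Klf2 in endothelial cells. Of 32851 promoter windows of this length, 52.0% held a KLF box and 3.2% the MEF2-type element. The Klf3 window held 5 KLF boxes, a number reached in 0.7% of the windows, and the Klf4 window held none. Of the member windows not shown, that of Klf13 held 1 and those of Klf6 and Il7r none. GC boxes (GGGCGG or its reverse complement CCGCCC, not marked above) numbered 2 in Klf2, 6 in Klf3 and 4 in Klf4. Those numbers were reached in 16.7%, 0.9% and 4.1% of the windows. G and C made up 71.2%, 78.4% and 74.0% of the Klf2, Klf3 and Klf4 windows, and the shares were not matched for this. The forkhead sequence TGTTTAC, the only spelling searched, was in none of the 6 member windows and in 3.2% of all. Both strands were searched, no marked matches overlap, and a match describes the letters, not a bound site.

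Klf13, known in T cells as an activator of the chemokine gene Ccl5, stood at 110.1 and 149 FPKM in cKO at 72 h, against 163 and 207 FPKM in Het. At 48 h it stood at 124 FPKM in cKO against 108 FPKM in Het. The groups did not overlap at 72 h, and the highest cKO value lay just under the lowest Het value. The log2 difference at 72 h was -0.52 ± 0.12 (SE, limma adjusted p = 0.202).

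Klf6, an early-response member of the family, stood at 35.0 and 43.3 FPKM in cKO at 72 h, against 42.6 and 53.2 FPKM in Het. It stood at 32.2 FPKM in cKO against 35.4 FPKM in Het at 48 h. The 72 h groups overlapped, although cKO was lower within each pair, by 0.28 and 0.29. The log2 difference of -0.28 ± 0.12 (SE, 95% interval -0.63 to 0.06, limma adjusted p = 0.337) is small beside that of Klf2 or Klf3.

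Klf4, which restrains division in other T cells, had the lowest level of the 8 genes in each 72 h library and was the only KLF member above Het at that time. It stood at 7.15 and 2.94 FPKM in cKO at 72 h, against 1.27 and 1.15 FPKM in Het. At 48 h it stood at 20.5 FPKM in cKO against 12.7 FPKM in Het. The cKO library was thus the higher in each of the 3 pairs. In both 72 h pairs 42.4% of all genes were higher in cKO. The log2 difference at 72 h was 1.36 ± 0.31 (SE, 95% interval 0.48 to 2.24, limma adjusted p = 0.198), with 1.85 in the pair of cKO 2 and Het 1 and 0.87 in the pair of cKO 4 and Het 3.

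Klf4 is also made by myeloid cells, and its highest cKO values were in the libraries with neutrophil markers. In the pair of cKO 4 and Het 3 those markers summed to 0.272 FPKM in cKO 4 and 0.512 FPKM in Het 3, with S100a8 and S100a9 listed at 0 in both, and the log2 difference of Klf4 there was 0.87. The part of myeloid cells was not tested in either pair. The pair of cKO 4 and Het 3 rests on few fragments, an estimated 71 in cKO 4 and 41 in Het 3. The counting intervals were 2.29 to 3.70 FPKM for cKO 4 and 0.823 to 1.56 FPKM for Het 3. These intervals hold counting error alone, and the pair has 1 library per genotype.

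S1pr1, the S1P receptor of lymphocyte egress and a known target of Klf2, stood at 42.9 and 99.1 FPKM in cKO at 72 h, against 129 and 154 FPKM in Het. It stood at 55.0 FPKM in cKO against 46.6 FPKM in Het at 48 h. The 72 h groups did not overlap, but the cKO libraries lay far apart, and cKO 4 was closer to Het than cKO 2 was. The log2 difference at 72 h was -1.10 ± 0.27 (SE, 95% interval -1.84 to -0.35, limma adjusted p = 0.207). It was -1.56 in the pair of cKO 2 and Het 1 and -0.63 in the pair of cKO 4 and Het 3.

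Ccr7, the receptor for lymph node entry, did not follow S1pr1. It stood at 155.5 and 108 FPKM in cKO at 72 h, against 72.3 and 65.9 FPKM in Het. At 48 h it stood at 168 FPKM in cKO against 113 FPKM in Het. The cKO library was the higher in each pair, and the 72 h groups did not overlap. Of all genes, 42.4% were higher in cKO in both 72 h pairs, and 24.9% had both cKO libraries above both Het libraries. The log2 difference at 72 h was 0.90 ± 0.16 (SE, 95% interval 0.46 to 1.34, limma adjusted p = 0.151). Over both times, with 3 libraries per genotype, it was 0.79 ± 0.13 (SE, limma adjusted p = 0.343). Ccr7 is also made by B cells, whose markers were highest in cKO 2. In the pair of cKO 4 and Het 3 these markers summed to 8.18 FPKM in cKO 4 and 9.11 FPKM in Het 3, and the log2 difference of Ccr7 there was 0.70.

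Il7r, the survival receptor that resting T cells carry and Treg cells hold at a low level, stood at 13.2 and 39.05 FPKM in cKO at 72 h, against 14.8 and 20.2 FPKM in Het. It stood at 7.69 FPKM in cKO against 7.20 FPKM in Het at 48 h. The 72 h groups overlapped, since cKO 2 was the lowest and cKO 4 the highest of the 4 libraries. The pairs gave -0.15 and 0.92, and the log2 difference of 0.38 ± 0.30 (SE, 95% interval -0.46 to 1.23, limma adjusted p = 0.535) was about as large as its error.

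**Figure D2:**
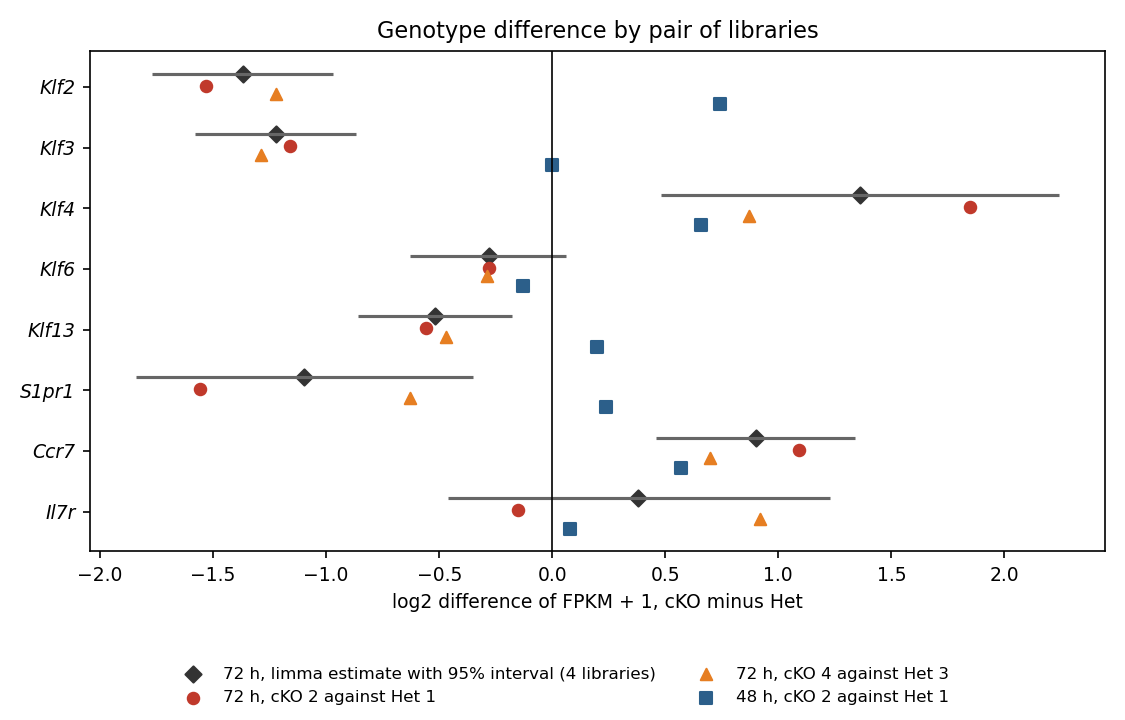
Log2 difference of FPKM + 1 (cKO minus Het) for each gene, with the limma estimate at 72 h and its 95% interval as grey diamonds and bars, and the single pairs of libraries as red circles and orange triangles (72 h) and blue squares (48 h). The 72 h values of Klf2, Klf3, Klf13 and S1pr1 lie below 0 while their 48 h values lie at or above 0, and Klf4 and Ccr7 lie above 0 in all 3 pairs.

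Read against the whole table, 0 of 8 members passed an adjusted p of 0.05 at 72 h, where 0.00% of the 12488 genes tested passed. At an unadjusted p under 0.05 there were 4 members on the lower side (Klf2, Klf3, Klf13 and S1pr1), against 6.99% of all genes, and 2 on the higher side (Klf4 and Ccr7), against 10.3%. Both cKO libraries lay below both Het libraries for 4 members, against 13.8% of all genes, and above them for 2 members, a share close to the 24.9% of all genes. Within both pairs, cKO was lower for 5 members, Klf6 being the fifth, against 24.6% of all genes, and higher for 2, against 42.4%. The members, and the lists below, were chosen with earlier results of these data known, so these counts are not an independent test. All 8 members passed the filter of a mean of at least 1 FPKM. The fit, with the table as a term, left 1 residual degree of freedom. Limma draws each gene's variance towards a trend over all genes. The SE and p-values thus do not measure the spread of 1 gene alone.

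The other genes of these pathways, from lists set out by role, were spread to both sides at 72 h, and none passed an adjusted p of 0.05. Among 21 other genes of lymphoid homing and retention, 16 were tested. Of these, 6 were lower in cKO and 3 higher at an unadjusted p under 0.05, against 6.99% and 10.3% of all genes. The median log2 difference was -0.31, against 0.08 over all genes. The integrin subunits Itga4 and Itgb1, which form the receptor for VCAM-1, stood at -0.87 ± 0.13 and -1.24 ± 0.19 (SE, limma adjusted p = 0.125 and 0.137).

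Among 21 tested genes of quiescence and the naive state, 5 were lower and 2 higher at an unadjusted p under 0.05. Over all genes the shares were 6.99% and 10.3%, so the count on the higher side was near its share. The median was -0.19. Id3, an inhibitor of E proteins, stood at 38.0 and 42.5 FPKM in cKO at 72 h, against 117 and 93.3 FPKM in Het. Its log2 difference was -1.36 ± 0.17 (SE, limma adjusted p = 0.121). The antiproliferative gene Btg1 stood at 0.72 ± 0.15 and Il6ra, the interleukin 6 receptor, at -0.62 ± 0.13 (SE, limma adjusted p = 0.175 and 0.179).

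**Figure D3:**
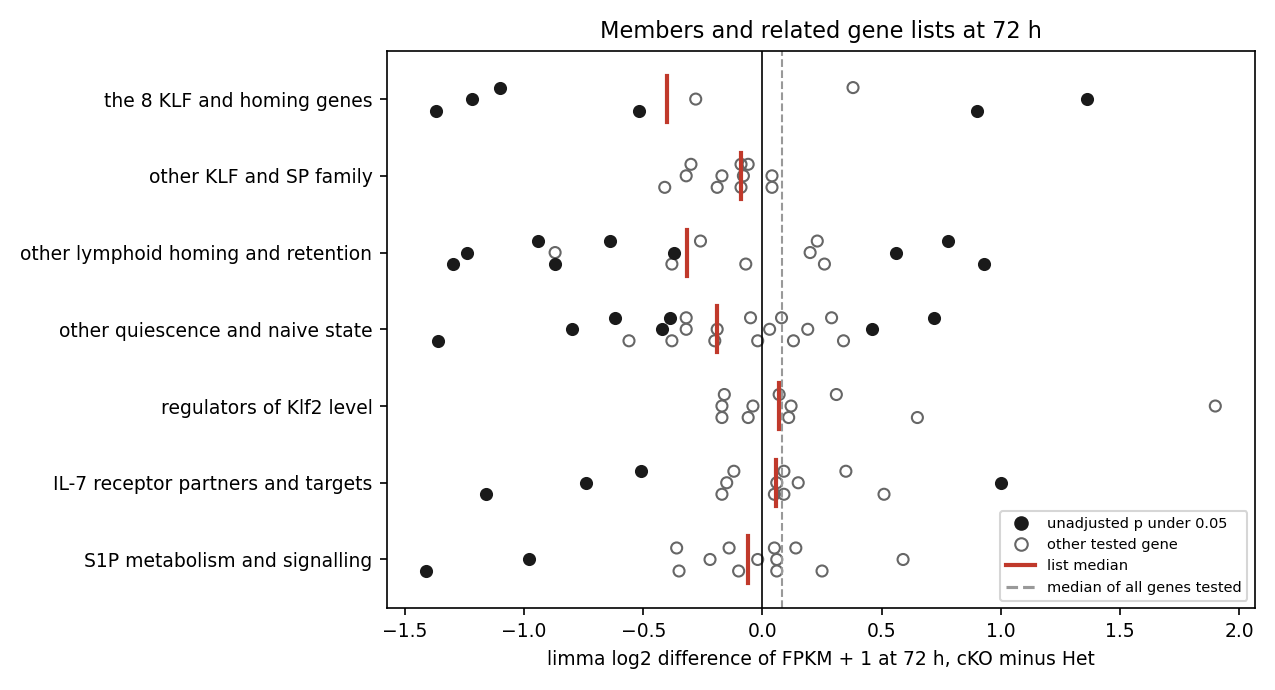
Limma log2 difference at 72 h (cKO minus Het, log2 of FPKM + 1) for each tested gene of the 8 members and of 6 related lists, with filled circles for an unadjusted p under 0.05, red bars for list medians and a dashed line for the median of all genes (0.08). The members and the other homing genes reach from below -1 to above 0.5, while the other KLF and SP genes stay within 0.41 of 0.

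The rest of the KLF and SP zinc finger family differed little. Of 21 genes 11 were tested, 9 of them below 0 and 2 above, with a median of -0.09 and 0 at an unadjusted p under 0.05. Over all 12488 genes tested, 4869 were below 0 and 7619 above. The smallest p belonged to Klf7 at -0.41 ± 0.18, Klf11 at -0.32 ± 0.16 and Sp3 at -0.17 ± 0.13 (SE, limma adjusted p = 0.34, 0.38 and 0.541). The 11 genes listed as regulators or partners of KLF factors, among them the kinase cascade that ends in Mapk7 (ERK5), had a median of 0.07 and 0 at an unadjusted p under 0.05. Mef2a stood at 0.31 ± 0.13 and the KLF3 partner Ctbp2 at 0.65 ± 0.37. Mef2c stood at 1.90 ± 0.89 (SE), with 12.3 and 0.22 FPKM in cKO at 72 h, against 0.108 and 0.0559 FPKM in Het. Its 1 high value was in cKO 2, the library with the highest B cell markers.

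Among 14 tested partners and targets of the interleukin 7 receptor, 3 were lower and 1 higher at an unadjusted p under 0.05. Over all genes the shares were 6.99% and 10.3%, so the count on the higher side was near its share. The median was 0.05. Stat5a, the transcription factor that carries the receptor's signal, stood at 115 and 95.5 FPKM in cKO at 72 h, against 52.4 and 51.5 FPKM in Het. Its log2 difference was 1.0 ± 0.14 (SE, limma adjusted p = 0.122). The survival gene Bcl2 stood at -0.74 ± 0.12 and the feedback inhibitor Socs3 at -1.16 ± 0.20 (SE, limma adjusted p = 0.143 and 0.152). The receptor gene itself had no such difference in both pairs.

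Among 14 tested genes of S1P metabolism and signalling, 2 were lower and 0 higher at an unadjusted p under 0.05. Over all genes the shares were 6.99% and 10.3%. The median was -0.06. Arrb1, a beta-arrestin that helps to take up activated receptors, stood at 42.5 and 56.5 FPKM in cKO at 72 h, against 137 and 127 FPKM in Het. Its log2 difference was -1.41 ± 0.18 (SE, limma adjusted p = 0.121). Of the lipid phosphatases, Plpp2 stood at -0.98 ± 0.20 and Plpp1 at 0.59 ± 0.23 (SE, limma adjusted p = 0.177 and 0.307).

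The 48 h libraries, 1 of each genotype, allow no test. Klf2 was 1.67-fold and Klf4 1.62-fold higher in cKO 2 than in Het 1, and Ccr7 1.49-fold. On the log2(FPKM + 1) scale 2 of 8 members, Klf2 and Klf4, were over 1.5-fold higher, against 3.14% of 12064 genes, and 0 of 8 were over 1.5-fold lower, against 1.87%. Klf13 and S1pr1 stood at 0.20 and 0.24, Klf6 at -0.13, Il7r at 0.08 and Klf3 at 0.00. Both 48 h libraries were in the first table, and neutrophil markers were present in cKO 2 and near 0 in Het 1.

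Whether the genotype difference was another at 72 h than at 48 h was tested with an interaction term over all 6 libraries. Klf2 stood at -2.11 ± 0.25 (SE, 95% interval -2.81 to -1.41, unadjusted p = 0.00128 and adjusted p = 0.742 by limma), which was place 14 by p among 12394 genes. S1pr1 stood at -1.33 ± 0.46, Klf3 at -1.22 ± 0.22 and Klf13 at -0.71 ± 0.21 (SE), with adjusted p by limma of 0.856, 0.742 and 0.828. These 4 members had an unadjusted p under 0.05 on the lower side, against 2.28% of all genes, and 0 did on the higher side, against 3.43%. No member, and 0.00% of all genes, passed an adjusted p of 0.05. Klf4, Ccr7, Il7r and Klf6 stood at 0.70, 0.33, 0.30 and -0.15. Klf2, Klf13 and S1pr1 were more than 0.1 above 0 at 48 h and more than 0.1 below 0 in both 72 h pairs, as were 3.69% of all genes.

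In the first table cKO 2 and Het 1 have libraries of both times, and their values are set side by side with no test. The labels do not say whether these come from the same cells. In cKO 2, Klf2 stood at 56.5 FPKM at 72 h against 220 FPKM at 48 h, and in Het 1 at 164.5 FPKM at 72 h against 132 FPKM at 48 h. S1pr1 stood at 42.9 FPKM at 72 h against 55.0 FPKM at 48 h in cKO 2, and at 129 FPKM against 46.6 FPKM, 2.76-fold higher, in Het 1. Klf3 was 2.57-fold higher at 72 h than at 48 h in Het 1 and 1.13-fold in cKO 2. The gap between genotypes in S1pr1 and Klf3 thus came with higher values in Het 1 at 72 h, and that in Klf2 mostly with a lower value in cKO 2. Klf4 was lower at 72 h in both, at 0.348 of its 48 h level in cKO 2 and 0.10 in Het 1. Il7r was higher at 72 h in both, by 1.72-fold in cKO 2 and 2.05-fold in Het 1.

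**Figure D4:**
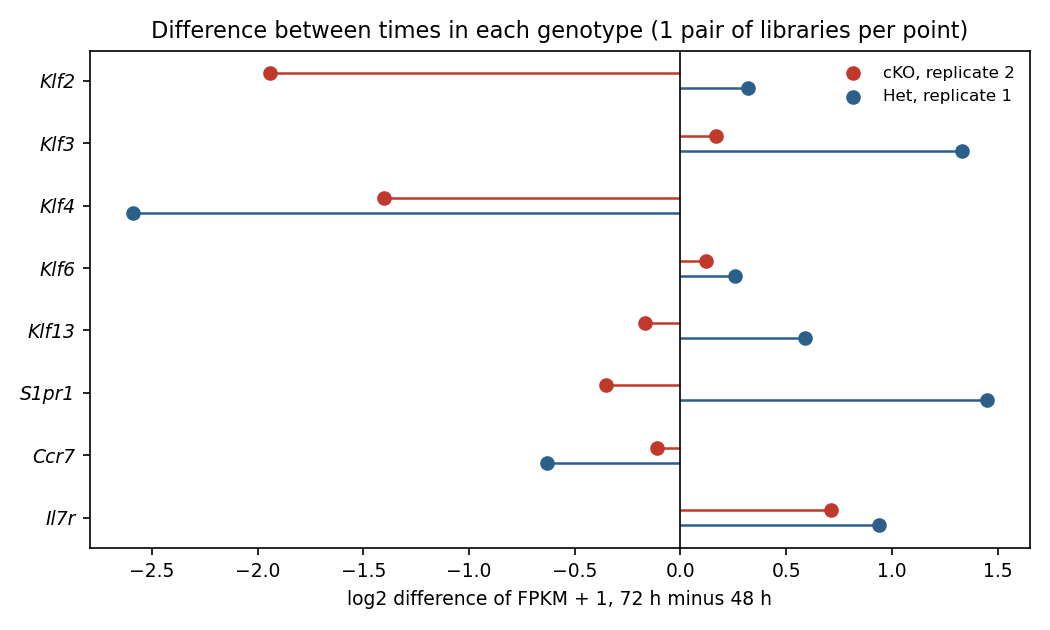
Log2 difference of FPKM + 1 between 72 h and 48 h for each gene, in cKO replicate 2 (red) and Het replicate 1 (blue), 1 pair of libraries per point. Klf2, Klf13 and S1pr1 lie below 0 in cKO and above 0 in Het, Klf4 and Ccr7 lie below 0 in both, and Klf3, Klf6 and Il7r above 0 in both.

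For time, the additive model of genotype, time and table gave Klf4 the largest log2 difference of the members, -2.0 ± 0.32 (SE, 95% interval -2.80 to -1.19, limma adjusted p = 0.26). Both 48 h libraries are in the first table, so with all libraries the time differences come from cKO 2 and Het 1 alone. Il7r stood at 0.83 ± 0.28, Klf3 at 0.75 ± 0.33, S1pr1 at 0.55 ± 0.41, Ccr7 at -0.37 ± 0.16 and Klf2 at -0.81 ± 0.55 (SE), with adjusted p by limma from 0.415 to 0.622. Klf6 and Klf13 stood at 0.19 and 0.21. No member passed an adjusted p of 0.05, against 0.0242% of 12394 genes, or 3 genes. These were Gzmb, Cd8a and Tgm2 and are named after their values were seen. Cd8a stood at 39.0 and 20.3 FPKM in cKO 2 and Het 1 at 72 h, against 0.992 and 0.466 FPKM at 48 h. In cKO 4 and Het 3 at 72 h it stood at 2.24 and 1.01 FPKM. The 3 genes gave way to 0 genes when cKO 2 or Het 1 of 48 h was left out, and to 1 without Het 1 of 72 h. At an unadjusted p under 0.05, Klf4 stood on the lower side, against 4.63% of all genes, and Il7r on the higher side, against 6.45%. The time difference of Klf2 was 0.24 without cKO 2 of 48 h. That of S1pr1 was -0.14 without Het 1 of 72 h and -0.12 without Het 1 of 48 h, and that of Klf13 was 0.00 and -0.15. Averaged over both times, the genotype difference was -0.67 ± 0.45 for Klf2, -0.82 ± 0.27 for Klf3, -0.65 ± 0.33 for S1pr1 and 1.13 ± 0.26 for Klf4 (SE, limma adjusted p from 0.343 to 0.527). Over both times 0 of 8 members and 0.00% of 12394 genes passed. At an unadjusted p under 0.05, Klf3 stood on the lower side, against 5.28% of all genes, and Klf4 and Ccr7 on the higher side, against 8.04%.

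Likeness of pattern was measured as the root mean square difference between genes of log2(FPKM + 1), centred within each table, over the 6 libraries, which share tables and depth. The differences were not scaled by how much a gene varied. Genes that varied little thus lie close to many others, and genes that varied much lie close to few. Among 8839 other genes that averaged 5 FPKM or more, the nearest to S1pr1 were Icosl, Ccs and Akap7, each at 0.07. Nearest to Klf3 were Hilpda at 0.05, P4ha1 at 0.09 and Pxylp1 at 0.12. P4ha1 stood at 46.2 and 51.8 FPKM in cKO at 72 h, against 121 and 134 FPKM in Het, and at 45.9 FPKM in cKO against 50.2 FPKM in Het at 48 h. Its values show the same pattern as Klf3, in which only the Het libraries of 72 h stand apart.

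Ccr7 was nearest to Tnfsf11 and Snhg15, each at 0.07, and to Gpr183 at 0.08. Gpr183, an oxysterol receptor that positions lymphocytes, stood at 9.61 and 3.99 FPKM in cKO at 72 h, against 4.26 and 2.40 FPKM in Het. Il7r was nearest to Rundc3a, Pla2g16 and Entpd1, at 0.08 to 0.09, and Klf4 to Tnfaip3, Stra6 and Trib1, at 0.20 to 0.23. Klf2 had no close match, with Trav14d-3-dv8, a T cell receptor segment that may share reads with near copies, at 0.25, Apobec2 at 0.29 and Igsf9 at 0.30. Klf6 and Klf13 had matches at 0.02 to 0.04, among them Mtmr12 for Klf6 and Tmsb10 for Klf13. Within the 8 members the smallest distance was that of Klf6 and Klf13 at 0.14, followed by Klf3 and S1pr1 at 0.25. Klf6 and Klf13 varied little, and at 48 h their log2 differences had opposite signs, at -0.13 and 0.20.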

How the data were processed

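FPKM of 6 libraries were deposited by the authors in 2 tables. Per the labels' protocols, a SMART-Seq v4 low-input kit was used. Per the submitters' processing notes, TopHat2 2.0.12, Bowtie2 2.2.3 and HTSeq 0.6.1 were used with build mm9. Neither annotation nor use of strand is given in the sources used here, so reads of overlapping genes cannot be told apart.

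The tables shared 47347 rows. The 278 rows without a gene ID were left out, and 46488 of 47069 gene IDs matched a symbol in a mouse annotation of a later build. Linear models were fitted with limma 3.58.1 (R 4.3.3, variance trend) on log2(FPKM + 1), which understates changes of low genes, for genes that averaged 1 FPKM or more. Benjamini-Hochberg adjustment ran over all genes tested, with 0.05 as the threshold. Table was a term in each fit. The fits were tested on simulated data. Fragments were estimated from FPKM and mean transcript length, where 84.7% to 85.3% of the values of low genes lay within 0.02 of a whole number. They served only for 95% exact Poisson counting intervals.

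The members and gene lists were chosen with earlier results of these data known. Of each list, the 3 genes with the smallest p at 72 h were named, except 1 that is not reported here. Likeness was ranked over named genes averaging 5 FPKM or more, 3 per member. Alternatives covered the pseudocount, filter, scaling, table term, variance trend, replicate block and leaving out each library. Python 3.11.15, pandas 2.3.3, numpy 2.4.6, scipy 1.17.1 and matplotlib 3.10.9 were used.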

Additional observations from a re-analysis of the deposited data

Results flagged for a closer look

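In 3 of the 8 genes cKO was lower than Het in both 72 h pairs and higher at 48 h, by more than 0.1 on the log2 scale each time, a pattern with this direction in 3.69% of 12394 genes. Klf2 stood at -1.53 and -1.22 in the 72 h pairs and at 0.74 at 48 h, and its interaction term was -2.11. S1pr1 stood at -1.56 and -0.63 in the 72 h pairs and at 0.24 at 48 h, with an interaction term of -1.33. Klf13 stood at -0.56 and -0.47 in the 72 h pairs and at 0.20 at 48 h, with an interaction term of -0.71. The difference was tested by limma for each gene, with adjusted p = 0.742 for Klf2, 0.856 for S1pr1 and 0.828 for Klf13, so none passed. The 48 h side rests on 1 library per genotype.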

How the results depend on the processing

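No member passed an adjusted p of 0.05 in any alternative run. At 72 h, 7 of the 8 genes kept their direction in every alternative. With table as a term, a fit without cKO 2 or Het 1 gives the difference of cKO 4 and Het 3 alone. A fit without cKO 4 or Het 3 gives that of cKO 2 and Het 1. These runs repeat the pair values given above and add no further check of direction. The pair of cKO 4 and Het 3 alone, an alternative chosen after seeing the data because of the markers of other cells in cKO 2, gave -1.22 for Klf2, -1.29 for Klf3, -0.63 for S1pr1, 0.87 for Klf4 and 0.70 for Ccr7. CD8 T and NK cell markers differed in that pair too, summing to 119 FPKM in cKO 4 against 14.2 FPKM in Het 3. Il7r was the exception in direction. Leaving out 1 library gave it -0.15 to 0.92 at 72 h and -0.03 to 0.50 over both times, the lower values without cKO 4 or Het 3.

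Counts over all genes moved more. At 72 h, no filter on low values gave 8 genes in place of 0. Over both times, leaving out 1 library gave 0 to 7 genes, with 7 without cKO 4 or Het 3. For time, 3 genes passed, against 1 with a pseudocount of 5 and 0 without a filter, without the table term or with the replicate block, and 0 to 4 when 1 library was left out. Leaving out 1 library also moved the time difference, to -1.87 to 0.24 for Klf2, -0.15 to 0.57 for Klf13 and -0.14 to 1.23 for S1pr1. Without Het replicate 1, Klf13 gave 0.00 (72 h) and -0.15 (48 h) and S1pr1 -0.14 and -0.12. The cause was not tested.

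The replicate number as a block, possible for time alone, left the log2 difference of Klf4 at -2.0 (limma adjusted p = 0.279) and changed no member's call. Groups of 1 library at 48 h give no deviations, so whether the numbers pair the libraries could not be checked. Leaving out a 72 h library leaves no residual degree of freedom for the genotype at 72 h or the interaction, which are then values with no test. Without a 48 h library the interaction could not be fitted.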
